A study of Mus musculus with 6 samples.

Results

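The gene regions described here carry the nuclear genes for the subunits and assembly factors of the mitochondrial respiratory chain and of ATP synthase. They are the regions of the deposited methylation table that held at least 3 cytosine positions and whose RefSeq transcript maps to a symbol beginning Nduf (followed by a, b, c, f, s or v), Sdha to Sdhd, Sdhaf, Uqcr, Uqcc, Cox4 to Cox8, Cox10 to Cox19 or Atp5. This rule used names only and gave 53 regions of 10021 with at least 3 positions, or of 10755 in all. A further 7 regions matched by name and held fewer positions: Atp5o, Ndufa9, Ndufaf3, Ndufb10, Sdhaf2, Uqcrc1 and Ndufc1. Another 51 protein-coding symbols that match the rule had no region in the table and were not analysed here, among them Cox6a2, Cox7a1, Cox8b and Cox4i2, Sdha, Ndufs1 and Cox15. The study compared quadriceps muscle of exercised C57BL/6 mice, which had run on a motorized treadmill through 4 weeks of training, with that of sedentary C57BL/6 controls, 3 samples each. DNA was taken 3 hours after the final bout. The labels state neither the ages and sexes of the mice nor whether each sample was a separate animal. P-values below thus reflect the scatter among these 6 samples and no more.

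The respiratory chain passes electrons from NADH (complex I) and succinate (complex II) through ubiquinone, complex III and cytochrome c to oxygen at complex IV. The proton gradient built by complexes I, III and IV drives ATP synthase, also called complex V. Muscle that trains for endurance is known for a rise in its mitochondrial content. Most of the subunits are encoded in the nucleus, largely by genes with CpG-rich promoters, which are as a rule unmethylated in somatic tissue.

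The promoters of these genes carry sites for the enzyme of the assay, and their letters are shown for that reason. RRBS (reduced representation bisulfite sequencing) starts from MspI fragments, and MspI cuts at CCGG. RefSeq promoter windows of 300 bases, most of them upstream of the annotated start (GRCm38.p6), were matched by symbol for 41 of the 53 genes. Each gene had 1 window, and all 41 (100%) contained CCGG. The share was 84.1% of the 9983 windows of all genes with a measured region and 52.8% of all 32851 windows. Those 9983 windows belong to 7753 genes and the 32851 to 27025, so the shares compared with the members are per window and not per gene. A region is measured only through MspI fragments, so the choice of genes itself favours a higher CCGG share than in all 32851 windows. The members' windows held a median of 20 CG dinucleotides, against 22 in the windows of all measured genes and 7 in all windows. A consensus motif of nuclear respiratory factor 1, a regulator of respiratory genes, was searched on both strands and was present in 11 windows (26.8%), against 9.19% and 4.6%. The ETS motif CCGGAAGT, which itself holds a CCGG and was also searched on both strands, was present in 3 windows (7.32%), against 7.33% and 3.89%. A match is a match of letters only. The table's own coordinates are those of mm9 and were not joined to these windows. The first 3 windows below belong to genes whose values are given in detail and have the CCGG sites in capitals. They are Atp5b at chr10:128083057-128083356 (plus strand), Cox5a at chr9:57520982-57521281 (plus strand) and Uqcr11 at chr10:80406772-80407071 (minus strand). The other 2 held the most matches to the nuclear respiratory factor 1 motif, 3 and 2, here in capitals: Ndufb4 at chr16:37654319-37654618 and Cox6a1 at chr5:115348909-115349208 (both minus strand). All are read from 5′ to 3′ along the gene.
Atp5b: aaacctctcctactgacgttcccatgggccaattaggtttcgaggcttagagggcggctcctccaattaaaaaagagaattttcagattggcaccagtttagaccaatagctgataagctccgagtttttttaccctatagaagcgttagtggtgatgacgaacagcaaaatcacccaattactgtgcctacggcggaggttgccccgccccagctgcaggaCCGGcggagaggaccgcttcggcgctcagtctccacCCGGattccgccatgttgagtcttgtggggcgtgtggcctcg
Cox5a: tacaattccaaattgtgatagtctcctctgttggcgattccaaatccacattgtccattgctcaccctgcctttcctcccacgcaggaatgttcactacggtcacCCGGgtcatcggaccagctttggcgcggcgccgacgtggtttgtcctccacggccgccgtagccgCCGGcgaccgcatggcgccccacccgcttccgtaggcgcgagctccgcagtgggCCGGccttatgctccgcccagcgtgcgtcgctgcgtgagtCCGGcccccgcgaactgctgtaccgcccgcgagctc
Uqcr11: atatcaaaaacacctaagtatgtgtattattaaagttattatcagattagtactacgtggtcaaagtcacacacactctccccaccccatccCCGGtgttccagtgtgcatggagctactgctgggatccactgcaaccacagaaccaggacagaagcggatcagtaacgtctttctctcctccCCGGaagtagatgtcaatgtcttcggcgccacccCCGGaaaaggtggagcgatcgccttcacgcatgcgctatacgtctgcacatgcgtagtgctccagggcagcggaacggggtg
Ndufb4: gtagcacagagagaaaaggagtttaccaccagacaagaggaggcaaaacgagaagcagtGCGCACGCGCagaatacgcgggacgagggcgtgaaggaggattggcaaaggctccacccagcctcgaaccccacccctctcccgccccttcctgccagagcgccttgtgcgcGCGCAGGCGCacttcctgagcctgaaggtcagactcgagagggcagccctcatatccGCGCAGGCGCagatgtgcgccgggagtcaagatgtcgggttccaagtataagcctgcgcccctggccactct
Cox6a1: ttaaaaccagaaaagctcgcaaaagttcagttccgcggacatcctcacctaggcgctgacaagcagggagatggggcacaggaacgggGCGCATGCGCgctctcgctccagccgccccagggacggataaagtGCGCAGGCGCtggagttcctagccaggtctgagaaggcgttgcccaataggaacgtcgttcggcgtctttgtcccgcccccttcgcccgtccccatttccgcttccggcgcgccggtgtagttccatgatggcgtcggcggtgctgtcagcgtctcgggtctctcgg

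For each cytosine position the table gives the methylated fraction and the number of reads in each sample. A region level below means methylated reads as a percentage of all reads, both summed over the positions of the region. A read thus counts once at each position it covers, and each such count is a call here. The level averages over all cells of the muscle sample. A change within cells and a change in the mix of cells therefore cannot be told apart. Total coverage of the table ran from 14556783 to 17815556 calls in exercised samples and from 9153526 to 18656340 in sedentary samples, and sedentary sample 3 was the shallowest. The members held 944 positions, with a median coverage of 50, 56 and 52 reads in exercised samples 1 to 3 and of 43, 62 and 28 reads in sedentary samples 1 to 3. A region level rested on 30 to 4771 calls per sample, with a median of 735. The Wilson 95% interval of a level was 5.98 points wide at the median and 33.1 points at the widest, and it covers counting error only. It takes calls as independent, although nearby positions can share reads, so it can understate that error. A check of the tissue by its markers was not possible. Only 2 of 12 skeletal muscle genes (Acta1 and Pvalb) had a region, with 3 positions each, and a methylation level does not name a cell type.

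The region levels of the members lay near those of the whole table, and most of their cytosines were nearly unmethylated. Their median level was 23.0%, against 22.0% over all regions, and 50 of the 53 lay between 10% and 40%. The median of single positions was 2.59%, against 2.41% over the whole table. Cox10, which makes the heme A precursor of complex IV, had the lowest level. It stood at 2.65%, 0% and 1.33% in exercised samples 1 to 3, and at 0%, 1.96% and 0% in sedentary samples 1 to 3. In exercised sample 2, 0 of 75 calls were methylated. With calls taken as independent, this allows up to 4.0% by a limit of 3 counts and up to 4.87% by the Wilson interval. In sedentary samples 1 and 3, 0 of 45 and 0 of 39 calls were methylated. These allow up to 6.67% and 7.69% by the limit of 3 counts and up to 7.87% and 8.97% by the Wilson interval. The calls came from 3 positions that can share reads, and with shared reads all these limits are too low. Ndufaf5, which modifies a core subunit during complex I assembly, had the highest, at 49.0%, 43.6% and 47.6% in exercised samples and 49.1%, 43.7% and 40.5% in sedentary samples. It was the only member at 40% or more (1.89%), against 9.39% of all regions.

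**Figure D1:**
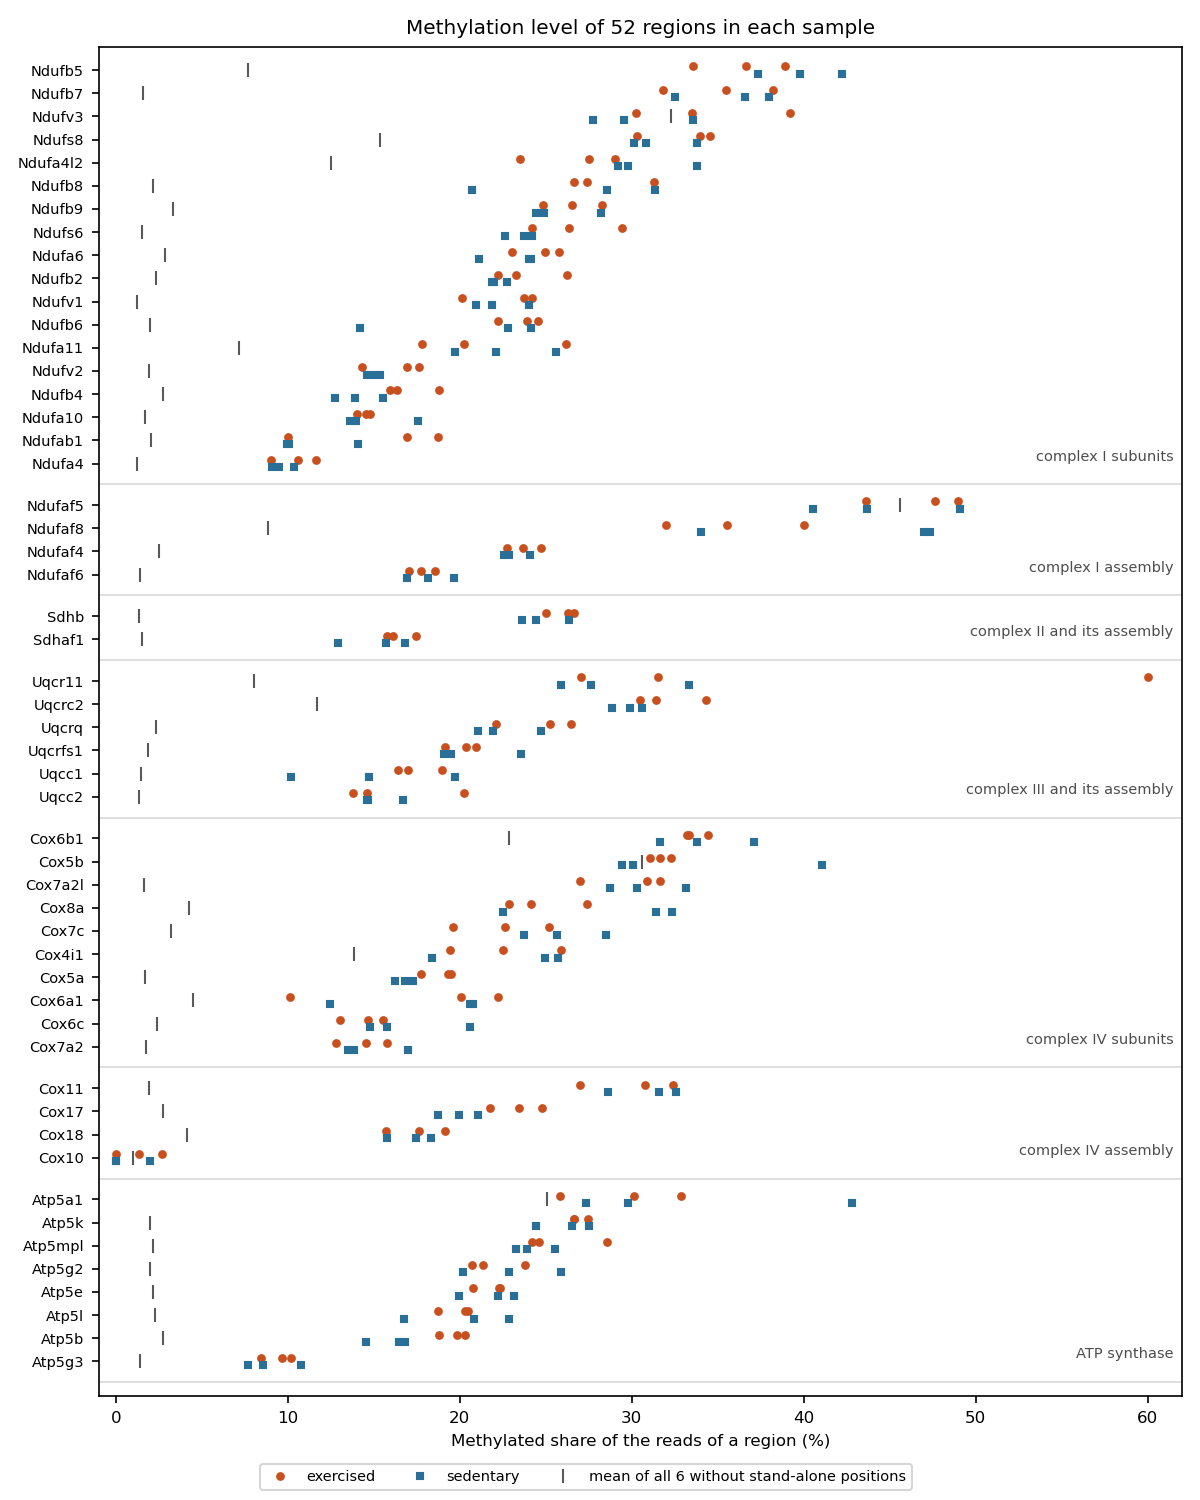
Methylation level (methylated share of reads, %) of 52 of the 53 regions, grouped by complex, with 1 point per sample (exercised circles above sedentary squares). The vertical ticks give the mean of all 6 samples once stand-alone positions are left out. Most regions lie between 10% and 40%, most ticks lie under 5%, and the Uqcr11 point at 60.0% is exercised sample 1.

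In most of the 53 regions the level came largely from few cytosines. Of the 944 positions, 645 (68.3%) had a mean level under 10% and 142 had 80% or more. Among the 299 that reached 10%, 254 (84.9%) were stand-alone, meaning that the median of the other positions within 200 bp was under 10%, against 82.1% over the whole table. Such a position was present in 50 of the 53 regions (94.3%), against 88.1% of all regions. Without these positions the median level of the members was 2.33%, against 2.30% over all regions. The 3 regions with 0 stand-alone positions were Ndufaf5, Ndufv3 and Cox10.

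The stand-alone cytosines lay mostly at the ends of the runs of measured positions. In runs of at least 6 positions no more than 30 bp apart (60 runs in the members), 154 of the 240 outermost positions, 2 at each end, were stand-alone (64.2%), against 59 of 550 positions in between (10.7%). Over all regions the shares were 61.1% and 12.7%. Neighbouring cytosines 1 bp apart, the spacing of the 2 strands of a CpG, often differed widely. Their strands were not read from sequence. Of 96 adjacent pairs in the members with at least 1 position at 10% or more, 67 (69.8%) differed by 50 points or more, against 63.4% of such pairs over all regions, and the median gap was 76.6 points, against 70.9. Both features were thus present across the table. Ndufa4, which was named for complex I and is now counted with complex IV, gives an example, with a position at 100% in all 6 samples at chr6:11857857 (mm9) and a median of 1.5% for the positions around it. Whether these positions lie at MspI cut ends was not tested. Because they enter the level of 50 of the 53 regions, a difference of a region named by the rule is also given without them where it moved by more than the SD between samples.

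**Figure D2:**
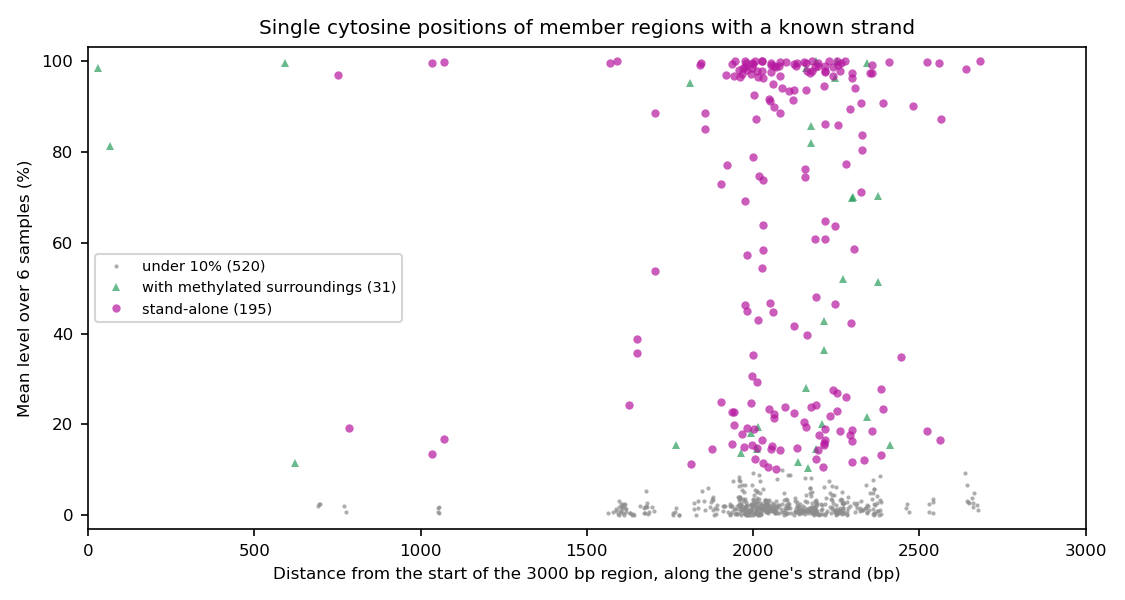
Mean level over all 6 samples (%) of each single position in the 41 member regions whose gene strand was known, by distance from the start of the 3000 bp region along the gene (bp). Positions under 10% are grey dots, stand-alone positions circles and methylated positions with methylated surroundings triangles. Most positions (87.1%) lie beyond 1800 and up to 2500 bp, against 72.0% over all regions with a known strand, with high stand-alone points above a floor of low ones.

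**Figure D3:**
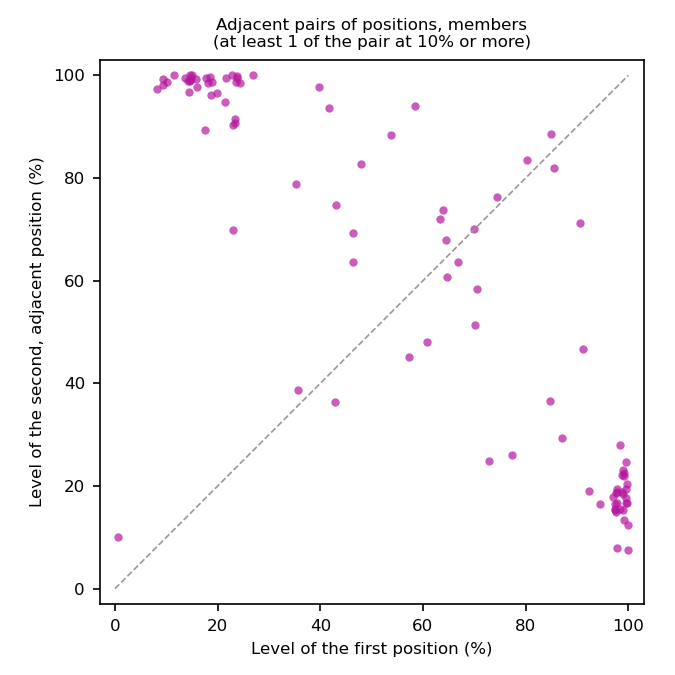
Mean levels over all 6 samples (%) of the 2 adjacent positions of a pair, for the 96 member pairs with at least 1 position at 10% or more; the dashed line marks equal levels. Most points lie in 2 corners far from the line, at a high level on 1 position and a low level on its neighbour.

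The question of the comparison was whether methylation at these genes differed after training. No region passed edgeR's quasi-likelihood test with Benjamini-Hochberg adjustment at 0.05, 0 of 53 members and 0 of 10021 regions (percent called 0), and the adjusted p of each member was 0.9998. At an unadjusted p under 0.05 stood 1 member, Atp5b (1.89%), against 2.37% of all regions. The sample levels of the 2 groups did not overlap in 5 members (9.43%), against 7.25% of all regions. These were Atp5b, Ndufb4, Cox5a and Cox17, higher in exercised samples, and Ndufa4l2, lower. Exercised means were the higher in 31 members and the lower in 22, while 61% of all regions had the higher mean in exercised samples. The median difference was 0.556 percentage points (exercised minus sedentary), against 0.390 over all regions. Both moved with the positions and samples used. Without stand-alone positions the members were split 26 to 27 and their median was -0.0484 points. Over all regions the split was then 5729 higher to 4292 lower and the median 0.172 points. Without exercised sample 1 the share of all regions that were higher was 49.7% and their median -0.00949 points.

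The median member level also overlapped between the groups. It was 22.3%, 24.2% and 23.0% in exercised samples 1 to 3, a mean of 23.2% ± 0.968, and 23.7%, 22.5% and 22.9% in sedentary samples 1 to 3, a mean of 23.0% ± 0.611 (SD, n = 3 each). By class of position, the stand-alone cytosines averaged 64.8% ± 1.73 in exercised and 63.3% ± 1.30 in sedentary samples. Those under 10% averaged 2.23% ± 0.555 and 2.05% ± 0.336, and those with methylated surroundings 54.9% ± 1.87 and 54.9% ± 2.33. In all 3 classes the samples of the 2 groups overlapped. The stand-alone difference was 1.51 points, against 0.301 over the whole table. It was above the SD of the sedentary and below that of the exercised samples. The differences of 43 of the 53 members lay between the 5th and 95th percentile of all regions, -3.16 and 3.61 points. The other 10 (18.9%, against 10% of all regions) lay outside, 6 below and 4 above, and this excess was not tested.

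**Figure D4:**
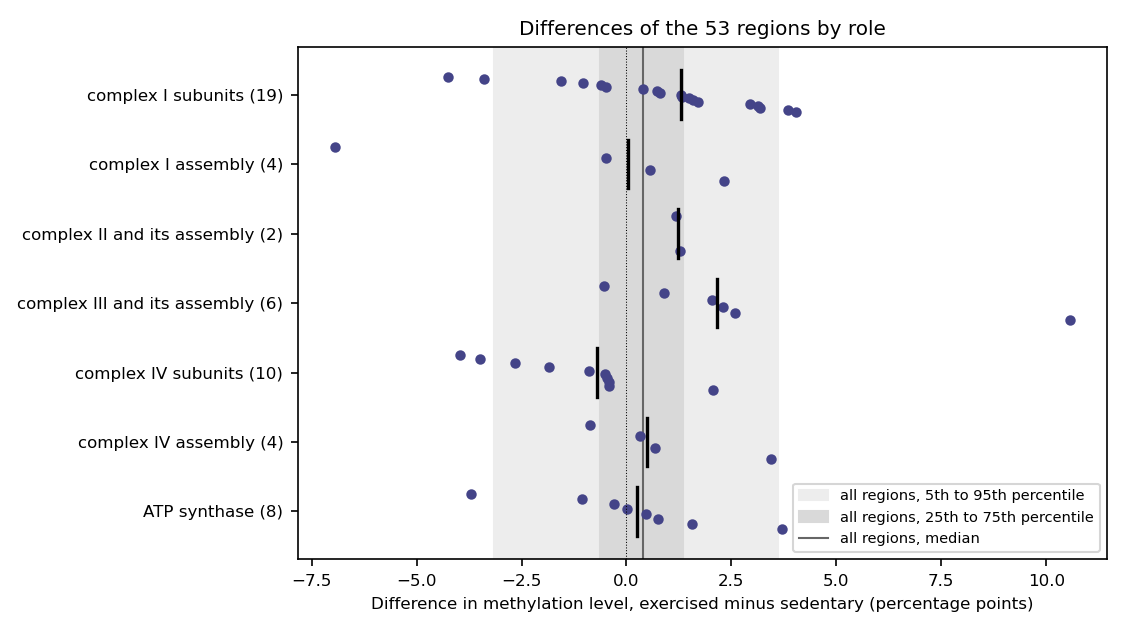
Difference in methylation level (exercised minus sedentary, percentage points) of each member region by role, with the number of regions in parentheses and the median of the role as a black bar. Grey bands show the 5th to 95th and 25th to 75th percentiles of all 10021 regions and the grey line their median. The point at 10.6 points is Uqcr11, and 9 of the 10 complex IV subunits lie below 0.

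Complex I takes electrons from NADH. Of its 19 subunit regions, 13 were higher and 6 lower in exercised samples, and the median difference was 1.31 points, within a range from -4.25 to 4.03. Without stand-alone positions the split was 11 to 8 and the median 0.180 points. These counts go by gene name and include Ndufa4, which was higher by 0.788 points. With Ndufa4 left out the split was 12 to 6. The counts also include its relative Ndufa4l2, whose difference is the lower end of the range. Ndufb4, an accessory subunit of the membrane arm (chr16:37653455-37656454, mm9, 15 positions), stood at 15.9%, 18.8% and 16.3% in exercised samples 1 to 3 and at 12.7%, 13.9% and 15.6% in sedentary samples 1 to 3. Every exercised sample lay above every sedentary sample, the closest pair being 15.9% and 15.6%. The difference was 2.95 points (edgeR's quasi-likelihood test, unadjusted p = 0.0520), and it was 0.362 points at positions covered at least 20 times in every sample. Its 2 stand-alone positions were at 93.2% or more throughout, and the other 13 averaged 3.65% in exercised and 1.86% in sedentary samples.

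Ndufa4l2 encodes a relative of Ndufa4 that hypoxia induces, and its region (chr10:126949995-126952994, mm9, 12 positions) was lower in exercised samples. Its level was 23.5%, 27.5% and 29.0% in exercised samples and 29.2%, 33.8% and 29.8% in sedentary samples. The groups did not overlap, although exercised sample 3 and sedentary sample 1 almost touched. The difference of -4.25 points (unadjusted p = 0.0689) was -7.77 points without stand-alone positions and -1.03 points at a coverage of at least 20. At the first position of 3 adjacent pairs, from 126950097 to 126950116, sedentary sample 1 stood at 20.8% to 25% and sedentary sample 3 at 10%, while sedentary sample 2 stood at 0% to 3.70% and exercised samples at 0% to 7.27%.

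Ndufv1, the core subunit of complex I that holds the NADH site, averaged 22.7% ± 2.25 in the exercised and 22.3% ± 1.59 in the sedentary samples (SD, n = 3 each). The difference, 0.401 points, was smaller than the spread within a group. Ndufb5 and Ndufb7, accessory subunits with the highest levels of the complex, stood at 36.4% ± 2.69 against 39.8% ± 2.43 and at 35.2% ± 3.19 against 35.7% ± 2.84. They rested on 3 and 4 positions. Without stand-alone positions Ndufb7 kept 2 positions, and its difference of -0.488 points was 2.58 points. Of the complex I regions outside the naming rule, Ndufv3, Ndufab1, Ndufb6 and Ndufs6 had the largest positive differences, from 3.13 to 4.03 points. Their groups overlapped, and the Ndufs6 region shares 1474 bp with that of Mrpl36, a mitochondrial ribosomal protein gene.

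The 4 regions of complex I assembly factors were split 2 to 2. Ndufaf8, a partner of Ndufaf5, stood at 35.6%, 32.0% and 40% in exercised samples and at 47.0%, 47.4% and 34.0% in sedentary samples. Sedentary samples 1 and 2 were above all exercised samples and sedentary sample 3 was among them. The difference was -6.95 points, and the only 1 of 3 positions that varied was 119960241 on chromosome 11 (mm9), which stood at 6.67%, 0% and 20% in exercised samples and at 40.6%, 41.7% and 0% in sedentary samples. The other positions were at 0% and 100% in all 6 samples. For Ndufaf5 the difference was 2.33 points, with overlapping groups.

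Complex II, succinate dehydrogenase, had 2 regions. Sdhb, its iron-sulfur subunit, averaged 26.0% ± 0.876 in the exercised and 24.8% ± 1.39 in the sedentary samples. Sdhaf1, which helps insert that subunit's iron-sulfur clusters, stood at 16.4% ± 0.895 and 15.1% ± 2.0 (SD, n = 3 each). In both regions the samples overlapped, and without stand-alone positions both differences changed sign, to -0.408 and -0.817 points.

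Complex III hands electrons to cytochrome c. Of its 6 regions, assembly factors Uqcc1 and Uqcc2 included, 5 were higher and 1 lower, and their median difference was 2.17 points, or 0.586 points without stand-alone positions. Uqcr11, a small subunit (chr10:79868567-79871566, mm9, 4 positions), stood at 60.0%, 27.0% and 31.5% in exercised samples and at 25.9%, 33.3% and 27.6% in sedentary samples. Exercised sample 1 stood far above the other 5, which overlapped. The Wilson 95% interval of that sample's level ran from 52.9% to 66.7%, with its 190 calls taken as independent. The difference was the highest of the members, 10.6 points (unadjusted p = 0.184), and was 0.328 points without exercised sample 1.

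Within Uqcr11 the high sample stood out at 3 of the 4 positions. At 79869631 its level was 66.0%, against 10% and 21.9% in the other exercised samples and 3.45%, 24.6% and 10.5% in sedentary samples. At 79869606 and 79869609 it was 37.5% and 36.2%, against 0% to 5.17% in the other 5 samples. The remaining position was at 95% or more in all 6. These positions lie within 35 bp and can share reads, so they are not separate observations.

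The other members of complex III differed less. Uqcrc2, a core protein of the complex, stood at 34.3%, 31.4% and 30.5% in exercised samples and at 29.9%, 30.6% and 28.8% in sedentary samples, differing by 2.29 points. Exercised sample 3 lay just under sedentary sample 2, and the other exercised samples were above all sedentary ones. Uqcrfs1, the Rieske iron-sulfur protein, averaged 20.2% ± 0.919 in the exercised and 20.7% ± 2.48 in the sedentary samples. Uqcrq, Uqcc1 and Uqcc2 differed by 2.04, 2.58 and 0.896 points with overlapping groups.

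Complex IV, cytochrome c oxidase, reduces oxygen. Of its 10 subunit regions, 1 was higher and 9 lower in exercised samples, and the median difference was -0.711 points, while 13 of 19 complex I regions and 61% of all regions were higher. Without stand-alone positions 2 were higher and 8 lower, and the median was -0.985 points. With Ndufa4 counted here and all positions used, 2 were higher and 9 lower, and the median was -0.523 points. By name alone, the split was 5 to 5 without sedentary sample 1, and also at a coverage of at least 20, and 0 of the 10 had an unadjusted p under 0.05. With all positions and samples, the higher one by name was Cox5a (chr9:57367039-57370038, mm9, 58 positions). It stood at 17.8%, 19.5% and 19.3% in exercised samples and at 16.8%, 17.3% and 16.2% in sedentary samples. The groups did not overlap. The difference of 2.06 points (unadjusted p = 0.0553) was 0.222 points without its 14 stand-alone positions.

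Among the lower ones, Cox8a, the ubiquitous form of a small subunit, stood at 27.4%, 24.1% and 22.9% in exercised samples and at 31.4%, 22.5% and 32.3% in sedentary samples. Sedentary samples 1 and 3 were above all exercised samples and sedentary sample 2 was below them. The difference was -3.97 points (unadjusted p = 0.193) and lay between -7.08 and -2.18 points under the alternatives; without sedentary sample 2 the unadjusted p was 0.00885. At its position 7291950 on chromosome 19 (mm9) exercised samples stood at 2.44%, 4.55% and 0%, and sedentary samples at 18.3%, 6.38% and 17.9%. Cox7c, another small subunit, stood at 19.6%, 25.2% and 22.6% in exercised samples and at 28.5%, 25.7% and 23.7% in sedentary samples, differing by -3.49 points with overlapping groups. Cox6c differed by -2.66 points, and its sedentary sample 3 was the highest.

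Several of the lower complex IV regions rested on 1 sample or barely differed. Cox5b stood at 31.1%, 31.6% and 32.3% in exercised samples and at 41.0%, 29.4% and 30.1% in sedentary samples. Its difference of -1.86 points was 1.91 points without sedentary sample 1, the only one above 40%. Cox6b1, a peripheral subunit with the highest level of the complex, averaged 33.7% ± 0.674 in the exercised and 34.2% ± 2.77 in the sedentary samples. Of the isoforms that occur outside muscle as well, Cox4i1 stood at 22.6% ± 3.24 and 23.0% ± 4.04, Cox6a1 at 17.5% ± 6.44 and 17.9% ± 4.76, Cox7a2 at 14.4% ± 1.5 and 14.8% ± 1.94, and Cox7a2l, a supercomplex factor, at 29.8% ± 2.51 and 30.7% ± 2.23 (SD, n = 3 each). These 5 differences, Cox6b1 included, were smaller than the spread within a group, and each had the opposite sign under at least 1 alternative.

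The 4 complex IV assembly regions comprised 3 higher and 1 lower. Cox17, a copper chaperone (chr16:38345085-38348084, mm9, 11 positions), stood at 21.8%, 24.8% and 23.4% in exercised samples and at 18.7%, 21.0% and 19.9% in sedentary samples. Every exercised sample was above every sedentary sample. The difference was 3.43 points (edgeR's quasi-likelihood test, unadjusted p = 0.0606), 3.6 points without stand-alone positions and 1.67 points at a coverage of at least 20. With stand-alone positions left out the groups overlapped, at 0.392%, 8.63% and 4.65% in exercised and 0.917%, 1.27% and 0.671% in sedentary samples. At the second position of 4 adjacent pairs, from 38347282 to 38347302 and on as few as 17 reads, levels stood at 21.4% to 25% in exercised sample 2 and at 15.6% to 16.1% in exercised sample 3. At these positions exercised sample 1 was at 0%, and sedentary samples were at 0% to 11.8%. Cox11, which delivers copper to the catalytic core, averaged 30.1% ± 2.80 in the exercised and 30.9% ± 2.05 in the sedentary samples, and Cox18, which inserts a subunit into the membrane, averaged 17.5% ± 1.72 and 17.2% ± 1.29.

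**Figure D5:**
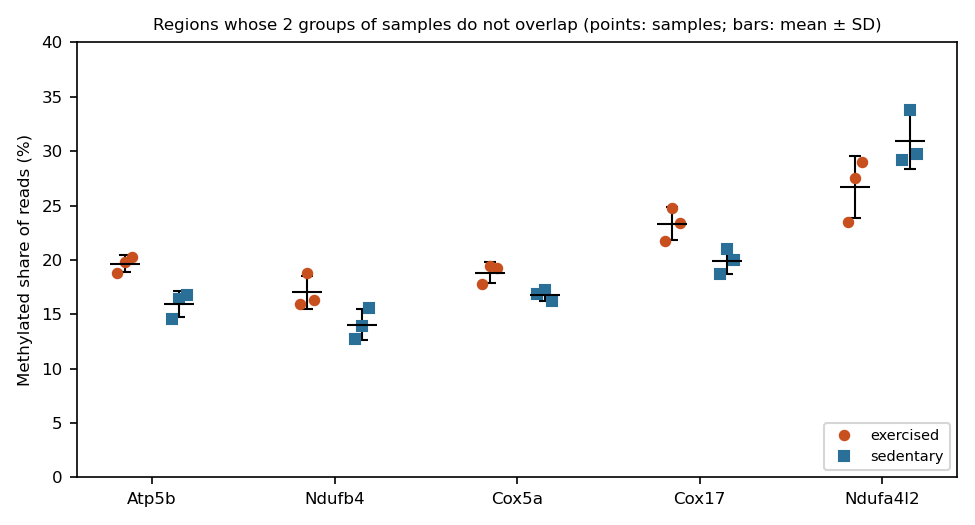
Methylation level (methylated share of reads, %) of the 5 regions whose groups did not overlap, exercised circles left of sedentary squares, 3 samples each, with bars for mean ± SD. Exercised samples lie above in Atp5b, Ndufb4, Cox5a and Cox17 and below in Ndufa4l2.

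ATP synthase uses the proton gradient to make ATP. Of its 8 regions, 5 were higher and 3 lower, and the median difference was 0.245 points. Without stand-alone positions the split turned round, to 3 against 5, and the median was -0.370 points. Atp5b, the catalytic beta subunit (NM_016774, chr10:127518363-127521362, mm9, 26 positions), stood at 18.8%, 19.8% and 20.3% in exercised samples and at 14.6%, 16.5% and 16.8% in sedentary samples. The lowest exercised sample was above the highest sedentary sample. The means were 19.6% ± 0.765 and 15.9% ± 1.21 (SD, n = 3 each), a difference of 3.71 points with the smallest p of the 53 regions (edgeR's quasi-likelihood test, unadjusted p = 0.00860, adjusted p = 0.9998). The Wilson 95% intervals of its single-sample levels were 3.59 to 5.86 points wide, with calls taken as independent.

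The Atp5b difference was of like size without its stand-alone positions. With these 7 left out, the level was 2.56%, 4.61% and 6.08% in exercised samples and 1.58%, 0.859% and 0.610% in sedentary samples, means of 4.42% ± 1.76 and 1.02% ± 0.504 (SD, n = 3 each) and a difference of 3.40 points (unadjusted p = 0.00349). The groups were again apart. The positions lay in 2 blocks. In the block from 127521000 to 127521045, which spans 46 bp, all 11 positions that were not stand-alone had the higher mean in exercised samples. Their pooled level was 4.25%, 5.91% and 7.45% in exercised samples and 1.63%, 1.23% and 0% in sedentary samples. In the other block, from 127520336 to 127520424, 6 of 8 such positions were higher, and the pooled means were 1.95% ± 1.49 in exercised and 1.22% ± 1.12 in sedentary samples, with overlapping samples. Positions this close share reads and are not replicates.

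The remaining ATP synthase regions did not separate the groups. Atp5a1, the alpha subunit that forms the catalytic hexamer with the beta subunit, stood at 25.8%, 32.8% and 30.1% in exercised samples and at 42.8%, 27.3% and 29.8% in sedentary samples. Sedentary sample 1 was the highest, and without it the difference of -3.71 points was 1.04 points. Atp5mpl, a small membrane subunit, differed by 1.55 points and Atp5k, subunit e, by 0.757 points. Of the genes for the c ring, Atp5g3 had the lowest level of the complex, at 9.45% ± 0.892 in exercised and 8.98% ± 1.59 in sedentary samples, and Atp5g2 differed by -1.05 points. Atp5e and Atp5l differed by 0.0213 and -0.306 points.

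At single positions, 0 of 898 member positions and 0 of 253960 positions overall passed edgeR's quasi-likelihood test with Benjamini-Hochberg adjustment (percent called 0; smallest adjusted p of a member 0.919). At an unadjusted p under 0.05 stood 34 member positions (3.79%), against 3.32% over the table. Of these, 20 were higher and 14 lower in exercised samples, in 20 regions, and 31 had a mean level under 10%. The lower position with the smallest p was 56856781 on chromosome 17 (mm9) in Ndufa11, an accessory subunit of complex I. It stood at 0% in all 3 exercised samples, on 50, 57 and 88 reads, and at 9.20%, 6.35% and 2.86% in sedentary samples, on 87, 126 and 35 reads (unadjusted p = 0.00543). The higher one was 127521021 in Atp5b, inside the 46 bp block. It stood at 8.45%, 6.49% and 6.60% in exercised samples and at 0.962%, 0% and 0% in sedentary samples, on 50 to 126 reads (unadjusted p = 0.00688). At both positions, which were picked for the smallest p, the groups did not overlap. The share of such positions over the table is not given here.

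The other positions named by p were also close to 0. In Ndufa10 (94370260, chromosome 1) exercised samples were at 0% and sedentary samples at 1.59%, 8.99% and 0%. In Cox18 (90652776, chromosome 5) exercised samples were at 0%, 0.641% and 1.26% and sedentary samples at 2.63%, 5.26% and 11.5%. Only the second of these had groups that did not overlap. The Atp5mpl position (113205281, chromosome 12) averaged 2.74% ± 0.890 and the Ndufs6 position (73465921, chromosome 13) 3.32% ± 2.14 in exercised samples, and both were at 0% in all 3 sedentary samples, on 66 to 148 reads. At the other end of the scale, 14 member positions in 12 regions were at 100% in all 6 samples. The 5 of these named by the rule, with ties taken by the lowest coordinate, lay in Ndufs8, Ndufa4, Cox6b1, Ndufv3 and Cox6c.

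The authors' deposited table carries its own unadjusted p-values, for 253960 of 268725 positions. By the authors' deposited table, 32 of 898 member positions (3.56%) were under 0.05, 25 of them higher and 7 lower, against 3.13% of all positions. The smallest member value in the authors' deposited table, 3.13e-06, was at 57368975 in Cox5a, with a difference of -4.13 points. That position stood at 0% in all 3 exercised samples, on 42, 55 and 65 reads, and at 3.92%, 4.30% and 4.17% in sedentary samples, on 51, 93 and 24 reads. The sedentary values had an SD of 0.192 points (n = 3), and edgeR's quasi-likelihood test gave an unadjusted p of 0.0296 and an adjusted p of 0.919. The only member position beyond 20 points with a p under 0.05 in the authors' deposited table was the stand-alone position 24825171 of Ndufaf4, an assembly factor of complex I. It stood at 2.74%, 11.8% and 10% in exercised samples and at 33.3%, 34.4% and 27.3% in sedentary samples, on 11 to 73 reads, and edgeR's unadjusted p was 0.0404.

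Genes of the same pathway outside the name rule gave a like picture, with 0 regions past the adjusted test and 0 at an unadjusted p under 0.05. Of 27 measured assembly and carrier genes of 39 listed, such as Cycs (cytochrome c) and the adenine nucleotide carriers Slc25a4 and Slc25a5, 11 were higher and 16 lower in exercised samples, and the median difference was -0.108 points. Of 10 measured regulators of mitochondrial biogenesis of 13 listed, 4 were higher and 6 lower, and the median difference was -0.105 points. Tfam, which packages and transcribes mitochondrial DNA, averaged 18.1% ± 0.401 in the exercised and 18.7% ± 0.972 in the sedentary samples, and Ppargc1b, a coactivator of respiratory genes, averaged 23.5% ± 2.30 and 22.1% ± 1.77 (SD, n = 3 each). Of 12 measured citric acid cycle genes of 14 listed, 9 were higher and 3 lower, and the median difference was 0.565 points. Among 12 regions of 11 markers of other cells the tissue can hold, 6 were higher and 6 lower, and the median difference was -1.14 points. Their median level per sample was 29.8% to 31.3% in exercised and 28.7% to 33.5% in sedentary samples.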

How the data were processed

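The members and lists were chosen with earlier results of these data known. RRBS values came from 1 table for all 6 samples. For each position the authors deposited the methylated fraction (0 to 1) and the count of covering reads, at least 10 in every sample. The authors also deposited a difference of the group means per position and, at all but 14765 of them, an unadjusted p-value, with no statement of its test. The submitters' processing notes list Bismark 0.7.7, Bowtie 0.12.9, cutadapt 1.0, Trim Galore 0.2.5 and mm9. Their roles and settings and the placing of the 3000 bp regions are not stated there. Of the columns with sample values, 0 were left unused.

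Fraction times coverage was whole within 0.00236 of a read and gave methylated and unmethylated counts. Symbols were matched for 10652 of 10755 regions through RefSeq (GRCm38.p6), which was used for names, gene strand and promoter sequences only. Regions were tested on summed counts, and positions singly, with edgeR 4.0.16 (R 4.3.3, quasi-likelihood), with a term per sample and a group term on methylated counts, without a dispersion trend, and Benjamini-Hochberg adjustment over the table. It was tested on simulated data. Positions whose reads were all methylated or all unmethylated in the 6 samples could not be tested. No pair of samples agreed within sampling noise. Many respiratory chain genes have processed pseudogenes, and whether reads of such copies entered was not tested.

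The naming rule took, per role, the 2 regions with the smallest p and the 2 with the highest level, isoform pairs and core subunits, and any region with an unadjusted p under 0.05, which gave 29 regions, of which 1 is not reported here. Single positions were the 3 with the smallest p per direction and the 5 with the highest level. Other members and positions are named beside them after their values were seen. The motif CCGGAAGT was added after the naming rule. Alternatives tried were each sample omitted in turn, a replicate block, at least 20 reads in every sample, positions up to the 99.9th coverage percentile, limma 3.58.1 on log2 ratios of reads, Fisher's exact test with reads pooled, a quasi-binomial model, no stand-alone positions, means of position fractions, at least 5 positions, a minimum difference of 5 points, merged adjacent positions and the authors' p-values. Recounting the roles and the median under each and counting Ndufa4 with complex IV were added after seeing the data.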

Additional observations from a re-analysis of the deposited data

How the results depend on the processing

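With edgeR, limma 3.58.1 or the quasi-binomial model, 0 regions passed the adjusted threshold under every alternative run on regions, with or without a minimum difference of 5 points. Fisher's exact test on pooled reads, which ignores the spread between samples, passed 669 of all regions and 6 members (Atp5b, Cox5a, Ndufa4l2, Ndufab1, Sdhaf1 and Uqcr11). At an unadjusted p under 0.05 the main edgeR count was 237 of 10021 regions, with 1 of 53 members. Without exercised sample 1, 2 or 3 the counts of all regions were 169, 212 and 601, and those of members 4, 3 and 3. Without sedentary sample 1, 2 or 3 they were 276, 345 and 232 for all regions, and 1, 2 and 2 for members. At a coverage of at least 20 they were 188 of 8514 regions and 2 of 47 members. By limma they were 283 and 2, by the quasi-binomial model 336 and 3, and by Fisher's exact test 2019 and 14. Without stand-alone positions they were 440 of 9704 regions and 2 of 49 members. Of single positions, 1 passed adjustment with adjacent positions merged, and 57, with 1 member, by the authors' p-values. The unadjusted count of all positions (8424) was 4440 to 7142 with a sample left out, and that of members (34) was 17 to 28. Without exercised sample 2, exercised sample 3 and sedentary sample 3 it was 19, 17 and 20 for members, and 4440, 4476 and 6127 for all positions. Causes were not tested.

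The labels do not say whether equal replicate numbers pair the samples. The same-number correlations were 0.0021, -0.24 and -0.0834, and those of different numbers ran from -0.109 to 0.1915. These values cannot settle whether samples share a litter, day or batch. With the replicate block, 204 regions (1 member) and 1851 positions (7 members) had an unadjusted p under 0.05 and 0 passed adjustment.

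Atp5b kept an unadjusted p from 0.00349 to 0.0356 and a difference from 2.71 to 4.14 points under all alternatives other than Fisher's exact test. With a sample left out, the unadjusted p fell to 0.0382 for Ndufb4, 0.0280 for Cox5a, 0.0383 for Cox17, 0.0395 for Ndufa4l2, 0.0367 for Uqcr11 and 0.00885 for Cox8a, and their highest p over the alternatives were 0.884, 0.709, 0.382, 0.541, 0.830 and 0.513. Of the 29 named regions, 14 kept their sign under every setting and 15 did not. The median member difference ran from 0.175 to 1.12 points with a sample left out and was -0.0484 without stand-alone positions. Complex I had 12 to 15 higher regions of 19 with a sample left out, and complex IV 5 to 8 lower of 10. The share of all regions that were higher ran from 49.7% to 69.1% with a sample left out. The depth gave a single region level a Wilson 95% interval 5.98 points wide at the median, with calls taken as independent, and no detection limit was computed.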
